A study of Mus musculus with 12 samples.

Results

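Camphor white oil (CWO), an essential oil from the camphor tree, was compared with acetone vehicle on chemically induced skin papillomas of FVB/NJ mice after 6 weeks. The comparison uses 6 of the 12 RNA libraries of the series, chosen by their titles, which name papilloma and either CWO or vehicle, with 3 libraries in each group. In both groups mice were shaved at 6 to 7 weeks of age and given 1 application of 400 nmol of the mutagen DMBA in 200 µL of acetone. After a week of rest they received 10 nmol of the tumour promoter TPA in 200 µL of acetone, 2 times weekly, and carried many tumours by week 15. Mice were then given 20% CWO or acetone. From each of 3 mice per treatment, 4 pre-malignant tumours close in size were pooled. Each library is therefore 1 pool of tumours from 1 mouse, and the regimen was set so that every mouse also developed at least 1 malignant tumour. The volume of CWO put on tumours, and whether TPA continued with it, were not given in the sources used here. The other 6 libraries are epidermis, separated from skin 24 h after 400 µL of 20% CWO or acetone on shaved FVB/NJ mice without tumours, 3 libraries in each group, and they are used only as a comparator.

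Papillomas of this model are benign, overgrown squamous tumours. DMBA typically leaves an activating mutation in the Hras gene of a keratinocyte, and TPA drives the mutated cells to expand by irritation, inflammation and proliferation. Tumour keratinocytes keep the basal keratins Krt5 and Krt14 and some of the differentiation keratins Krt1 and Krt10, and papillomas can switch on keratins of mucosal squamous epithelium, such as Krt13 and Krt4. The study asked what CWO does to tumours and to normal skin, and the tumour comparison asks which genes differ between treated and untreated papillomas.

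Levels are FPKM, the fragments of a gene per kilobase of transcript, scaled to a common library size. Fragments per papilloma library numbered 15.6 to 20.4 M (mega), and 11838 to 12352 genes reached an FPKM of 1. The keratins were those of squamous tumours. Krt14 stood at 15400, 16100 and 15800 FPKM with vehicle, against 16800, 16900 and 17100 with CWO, and Krt5 between 3070 and 4100. Krt13 ran from 180 to 1920 FPKM in papillomas, against a mean of 0.0247 in vehicle epidermis, and Krt4 from 14.2 to 77.1 against 0.53. The simple-epithelium keratin Krt18 ranged from 0.847 to 18.4 FPKM, and its partner Krt8 stayed at 2.32 or less. The stress keratin Krt6a could be read in only 1 library of each group, at 9170 (vehicle 1) and 9230 (CWO 2), because the other 4 libraries carry a status of too many reads.

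No gene differed between CWO and vehicle papillomas at an adjusted p under 0.05 in limma, of 12144 tested (0.0%). The smallest adjusted p was 0.405, and limma-voom on recovered fragments also called 0 of 12128. An unadjusted p under 0.05 was met by 306 genes in limma (2.52%), 104 higher and 202 lower with CWO, and by 312 in limma-voom. The data bound most changes as well: the 95% interval of the log2 fold change lay inside a 2-fold change in either direction for 11798 genes (97.2%), and at the median gene it reached 0.25 to either side. In limma-voom the corresponding count was 11311 (93.3%). All log2 fold changes here are CWO over vehicle on log2(FPKM + 1), which understates changes of genes at low levels. Over all genes the median was -0.006, the 5th percentile -0.25 and the 95th 0.17. A fitted change of at least 2-fold was seen downward in 36 genes and upward in 2, Chi3l4 (1.71) and Slc38a4 (1.15), which are named after their values were seen. In a principal component analysis of the 6 libraries, Chi3l4 and Slc38a4 had the largest weights on component 2. There vehicle 1 (-12.9) and vehicle 3 (17.7) were furthest apart and the CWO libraries lay between them, so these genes varied among vehicle tumours too.

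The authors' deposited table of the same tumours gives 2 genes with an adjusted p under 0.05, of 18771 with a p-value (0.0107%), and 302 with an unadjusted p under 0.05. They are Rhcg, lower with CWO, and 1110012J17Rik, higher. Rhcg (chromosome 7, 86738249 to 86762543, mm9) encodes an ammonium transporter of the Rhesus family, found in kidney collecting duct and in squamous epithelia. Its level was 4.84, 4.96 and 5.88 FPKM in the vehicle tumours and 2.07, 2.4 and 1.87 in the CWO tumours. Each CWO tumour pool held less than any vehicle pool, and the mean went from 5.23 ± 0.569 to 2.11 ± 0.265 (SD, n = 3). The log2 fold change was -1.0 (95% interval -1.27 to -0.73), with the smallest p of all genes in limma (unadjusted p = 3.34e-05, adjusted p = 0.405). The authors' deposited table gives Rhcg a log2 fold change of -1.29 with an adjusted p of 4.14e-05. Rhcg was listed at 0 in every epidermis library, so the normal epidermis of this series gives no level to set beside it. In bulk tissue, fewer cells of a type and less RNA per cell cannot be told apart, here and in all results that follow.

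The other gene of the authors' deposited table, 1110012J17Rik (chromosome 17, 66686322 to 66799090, mm9), is a former name of Mtcl1, a microtubule crosslinking factor, in RefSeq's gene table for GRCm38.p6. It stood at 0.306, 0.809 and 0.599 FPKM with vehicle, against 1.49, 1.41 and 1.37 with CWO. These rest on 30, 110 and 79 recovered fragments against 215, 164 and 164. All CWO values lie above all vehicle values, and the mean ratio is 2.5. The gene passed the filter only through its CWO values, which favours this separation. The limma log2 fold change was 0.64 (95% interval 0.29 to 0.99, adjusted p = 1.0), and the authors' deposited table gives 1.33 with an adjusted p of 0.000309.

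**Figure D1:**
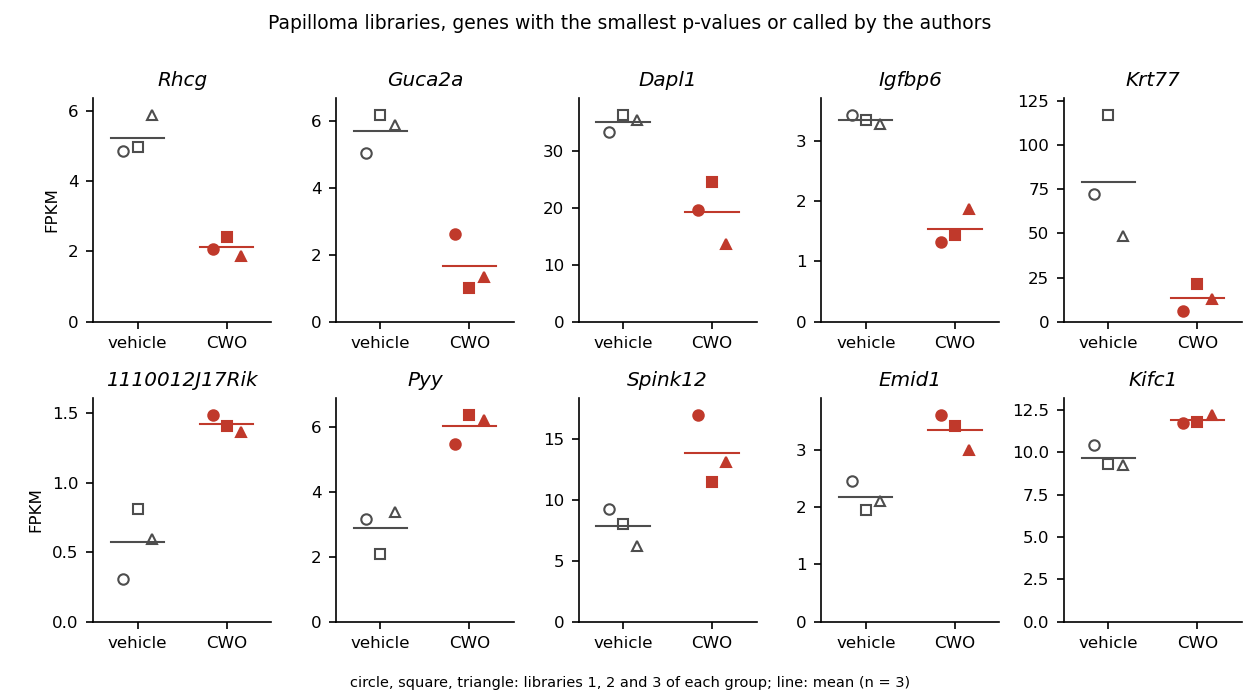
FPKM (vertical axes, from 0, a scale of its own for each gene) of 10 genes in the 3 vehicle and 3 CWO papilloma libraries, each point 1 library and each line a group mean. In all 10 genes the CWO points lie wholly below (upper row) or wholly above (lower row) the vehicle points, with Rhcg at 1.87 to 2.4 against 4.84 to 5.88.

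Across genes with a value in all 6 libraries, the 3 CWO values lay wholly above the 3 vehicle values in 367 of 12128 (3.03%) and wholly below in 432 (3.56%). The genes of smallest p belong to these, and none of them passed the adjusted threshold in limma. Guca2a encodes guanylin, a peptide that activates guanylate cyclase C in the gut. It was at 5.02, 6.17 and 5.86 FPKM in vehicle tumours and 2.61, 1.02 and 1.32 in CWO tumours (log2 fold change -1.38, 95% interval -1.87 to -0.89, adjusted p = 0.946). The vehicle tumours were close to each other, and every CWO tumour lay below them. Guca2a rests on few recovered fragments, 27, 43 and 40 with vehicle and 19, 6 and 8 with CWO. Igfbp6, a binding protein that prefers insulin-like growth factor II, was nearly constant in vehicle tumours, at 3.43, 3.35 and 3.27 FPKM. With CWO it was at 1.33, 1.43 and 1.87 (log2 fold change -0.78, interval -1.05 to -0.51, adjusted p = 0.946). Igfbp6 was the one of 10 tested members of the insulin-like growth factor list whose groups did not overlap, and that list's median was 0.01.

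Pyy, which encodes the gut hormone peptide YY, was the named gene with the smallest p in the upward direction. Vehicle tumours held 3.16, 2.10 and 3.38 FPKM and CWO tumours 5.50, 6.39 and 6.22, a mean ratio of 2.1 (log2 fold change 0.87, interval 0.53 to 1.22, adjusted p = 1.0). Pyy too rests on few recovered fragments, 14, 11 and 19 with vehicle and 33, 30 and 31 with CWO. Of the 12 guanylin and gut peptide genes, 3 were tested, and Guca2a and Pyy lay on opposite sides. Spink12, a Kazal-type serine protease inhibitor, was at 9.26, 8.03 and 6.24 FPKM with vehicle, against 17.0, 11.5 and 13.1 with CWO (log2 fold change 0.75). Emid1, a secreted matrix protein, had means of 2.17 ± 0.255 and 3.34 ± 0.319 FPKM (log2 fold change 0.45). Cyr61, a matrix-bound signalling protein, had 19.4 ± 0.936 and 28.4 ± 5.28 (0.51), and Nr1d1, a repressor of the circadian clock, had 20.7 ± 3.28 and 28.5 ± 3.48 (0.45). Adjusted p was 1.0 for each of these 4. Genes of replication-dependent histones, Hist1h4c and Hist1h2ao, also had all CWO values above (log2 fold changes 0.91 and 0.52), at levels of 3.69 FPKM or less. Hist1h4c rests on 2, 1 and 1 recovered fragments with vehicle against 3, 5 and 3 with CWO, and Hist1h2ao on 1, 3 and 1 against 4, 6 and 4. Hist1h2ao passed the filter only through its CWO values, which favours this separation. The authors' deposited table gives Hist1h2ao a mean of 0 in both groups, and Hist1h4c 0 with vehicle and 2.05 with CWO. Messages of such histones largely lack polyA tails and their family is nearly identical in sequence, so reads captured by polyA selection are an uncertain measure of them.

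Some genes of normal skin were lower in all CWO tumours. Krt77, a keratin of the differentiating layers of mouse skin, was at 72.2, 117 and 48.2 FPKM in vehicle tumours and 5.82, 21.5 and 12.9 in CWO tumours. Every CWO value lay below every vehicle value, and the log2 fold change was -2.55 (interval -3.61 to -1.49, adjusted p = 1.0). The same gene stood at a mean of 5410 FPKM in vehicle epidermis, far above any tumour. Dapl1, linked to early epithelial differentiation, stood at 33.4, 36.4 and 35.5 FPKM with vehicle, against 19.6, 24.6 and 13.6 with CWO (log2 fold change -0.87), against a mean of 819 in vehicle epidermis. Skint10, of a family of keratinocyte membrane proteins, stood at 2.27, 3.01 and 1.31 against 0.158, 0.586 and 0.304 (-1.22), and Krt15, a keratin of basal cells and of the hair follicle bulge, at 62.1, 62.6 and 28.5 against 27.7, 20.9 and 20.6 (-1.04). Flg2, a filaggrin-like protein of the cornified layer, had means of 20.4 and 13.6 FPKM. None of these 5 passed the adjusted threshold, and their groups did not overlap. Skint10 passed the filter only through its vehicle values, which favours this separation, and its CWO values rest on 5, 15 and 8 recovered fragments. Krt15 and Flg2 stand apart from their own lists, basal keratinocytes (median 0.12) and suprabasal differentiation (median -0.06), in each of which they alone had CWO wholly below.

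Skeletal muscle genes, which mark tissue under the skin, were lower in the same direction and lay further from 0 than any other list. All 13 tested members of 20 had a negative log2 fold change (median -1.68), and 2 had CWO wholly below vehicle, Tnni2 and Myh1, beside 3.56% of all genes. The filter favours members that are high in 1 group, and with no filter the CWO mean was the lower in 19 of the 20. Acta1, the actin of muscle fibres, was at 10.2, 108 and 13.0 FPKM with vehicle, against 0.157, 15.2 and 0.519 with CWO. Its high value in vehicle 2 and its low values in CWO 1 and CWO 3 set the difference, and the groups overlapped. The summed level of the whole list was 157, 596 and 154 FPKM with vehicle, against 89.8, 167 and 125 with CWO. In vehicle epidermis Acta1 had a mean of 2870 FPKM. Without vehicle 2 the list's median was -0.85. The part that carried-over neighbouring tissue has in the differences of Krt77, Dapl1, Skint10 and Krt15 was not tested.

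The next group was the mucosal squamous programme that marks papillomas. Of 14 listed genes 9 were tested, 8 had a negative log2 fold change (median -0.38), and 3 had CWO wholly below vehicle, namely Rhcg, Crnn and Tmprss11a, beside 3.56% of all genes. With no filter the CWO mean FPKM was the lower in 7 of the 14. Crnn, cornulin of the oral and oesophageal surface, stood at 31.5, 31.7 and 33.9 FPKM with vehicle, against 24.4, 27.3 and 22.6 with CWO (log2 fold change -0.38, interval -0.58 to -0.18, adjusted p = 1.0). Tmprss11a, a membrane serine protease of squamous epithelium, had a log2 fold change of -0.33. Krt13, the mucosal keratin most typical of papillomas, was far more variable, at 529, 1680 and 1920 FPKM with vehicle, against 180, 187 and 1250 with CWO. CWO 1 and CWO 2 lay below every vehicle tumour and CWO 3 lay among them, so the groups overlapped (log2 fold change -1.78, interval -3.64 to 0.08).

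Some other genes of squamous differentiation had the same split, while Rhcg, Crnn and Tmprss11a did not. Krt4, the partner of Krt13, was at 24.4, 60.6 and 77.1 FPKM with vehicle, against 16.6, 14.2 and 51.3 with CWO. Sprr3, a mucosal envelope precursor, was at 240, 534 and 718 against 85.7, 93.0 and 568. Krt18 was at 9.12, 6.66 and 4.90 against 0.847, 1.89 and 18.4. In all 3 genes CWO 1 and CWO 2 were the lowest libraries, while CWO 3 was within or above the vehicle range. CWO 3 also had the lowest Krt1 and Krt10, keratins of the differentiating layers, at 2250 and 2060 FPKM against 3470 to 6110 and 4110 to 8030 in the other 5 libraries. It alone had a high level of Pparg, a nuclear receptor of lipid metabolism, at 24.5 FPKM against 0.617 to 2.77 elsewhere. Without CWO 3 all 9 tested members of the mucosal list were negative, with a median of -0.65 and none called in limma (smallest adjusted p = 0.401). CWO 3 was singled out for its high values in these genes, so a lower median without it is no support. With any other library left out 8 were negative, with medians of -0.4 to -0.35.

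**Figure D2:**
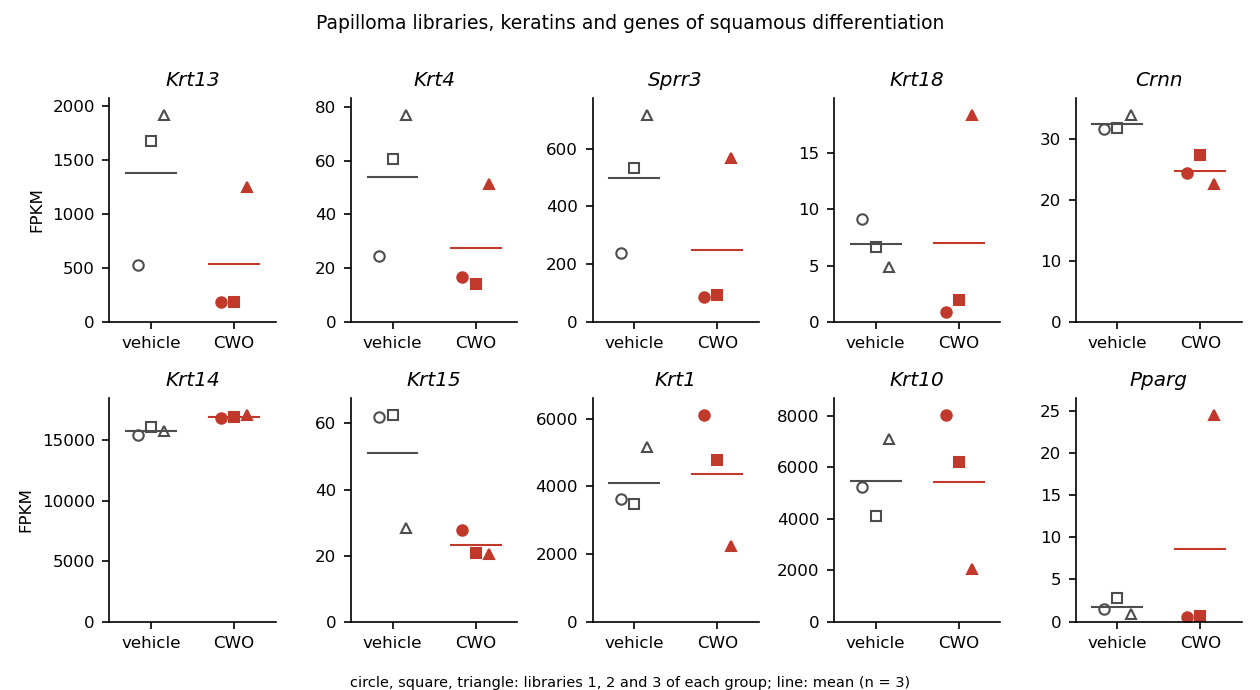
FPKM (vertical axes, from 0) of 10 keratins and related genes in the 3 vehicle and 3 CWO papilloma libraries, each point 1 library and each line a group mean. The triangle of the CWO group (CWO 3) sits apart from the other 2 in Krt13 (1250 against 180 and 187), Krt4, Sprr3, Krt18, Krt1, Krt10 and Pparg.

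Basal keratinocyte genes and the keratinocyte stress genes of these tumours were closer to equal. Of 13 basal genes 11 were positive with a median of 0.12, and Krt5 had a log2 fold change of 0.13 (interval -0.18 to 0.45). Krt16, a stress keratin of hyperproliferative skin, was at 8570 to 9480 FPKM with vehicle and 9070 to 9650 with CWO (0.06). The alarmin S100a8 overlapped widely, from 5340 to 9270 FPKM over the 6 tumours. Stfa1, a stefin that inhibits cysteine proteases, was at 576, 287 and 316 with vehicle and 256, 249 and 181 with CWO (log2 fold change -0.72), with no overlap. Its family is nearly identical in sequence, so its level depends on how shared reads were assigned. Suprabasal differentiation genes had a median of -0.06 over 20 tested.

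The cell division list showed small differences of 1 sign. All 22 mitosis genes had a positive log2 fold change, with a median of 0.17 and a range of 0.04 (Bub1) to 0.34 (Ccnb2), and 47.7% of all genes tested were positive. In 11 of the 21 members with 6 values the CWO tumours lay wholly above the vehicle tumours, beside 3.03% of all genes, and 9 had an unadjusted p under 0.05, beside 2.52%. No member passed the adjusted threshold (smallest adjusted p = 1.0), and every 95% interval lay within a 2-fold change. Genes of 1 process are not independent of each other, so these counts are not separate observations.

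Ccnb1, the cyclin that drives entry into mitosis, was at 18.5, 19.3 and 19.6 FPKM with vehicle, against 20.7, 24.8 and 25.5 with CWO (log2 fold change 0.29, interval 0.07 to 0.50). Top2a, the topoisomerase of dividing cells, was at 39.9, 39.1 and 38.0 against 43.7, 44.2 and 49.0 (0.22), and the proliferation marker Mki67 at 25.3, 24.7 and 24.6 against 26.5, 28.8 and 31.2 (0.20). CWO 1 was the lowest treated tumour in each of these, above all vehicle tumours. Outside the list, 3 genes among the 10 named with the smallest p upward also act in division. Kifc1, a spindle motor, was at 10.4, 9.31 and 9.24 against 11.7, 11.8 and 12.2 (0.28). Mastl, the kinase that protects mitotic phosphorylation, and Cenpp, of the centromere, had log2 fold changes of 0.37 and 0.38. DNA replication genes were nearer to 0: 16 of 20 were positive with a median of 0.08, Mcm6 alone had non-overlapping groups, and Pcna, the replication clamp, had a log2 fold change of 0.07. The replication median was 0.02 without vehicle 3 and 0.02 without CWO 3. The cell cycle inhibitors Cdkn1a and Cdkn2a had 0.10 and 0.23, with overlapping groups. When any 1 library was left out, 20 to 22 of the mitosis genes were positive and the median was 0.13 to 0.22.

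**Figure D3:**
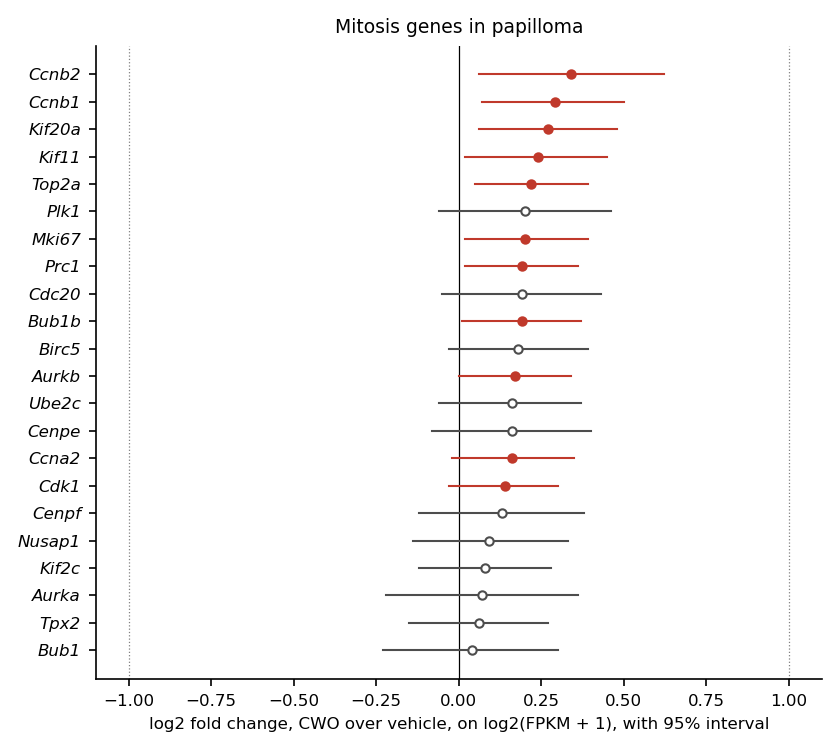
Log2 fold change (CWO over vehicle, on log2(FPKM + 1), horizontal axis) with its 95% interval for the 22 mitosis genes in papilloma. Filled red points are the 11 genes whose 3 CWO values lie above all 3 vehicle values, open points the others, and dotted lines mark a 2-fold change. All points lie right of 0 and all intervals lie inside the dotted lines.

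Whether lymphocytes take part in the response of tumours to CWO was among the questions of the study. T-cell and cytotoxic genes were too low in these tumours for most to be tested: 5 of 19 T-cell genes and 1 of 19 cytotoxic genes passed the filter. Cd3e, of the T-cell receptor complex, was at 0.212, 1.23 and 1.04 FPKM with vehicle, against 0.704, 0.677 and 0.235 with CWO (exact permutation test, two-sided, p = 0.6). Cd8a stood at 0.522 or less in every library (exact permutation p = 0.4) and Gzmb, granzyme B of killer cells, at 1.06 or less (exact permutation p = 0.5). With 3 against 3 this test cannot go below 0.1. Limma with no filter gave log2 fold changes of -0.21 (95% interval -0.83 to 0.41) for Cd3e, -0.11 (-0.40 to 0.18) for Cd8a and -0.17 (-0.63 to 0.30) for Gzmb, each with an adjusted p of 1.0. At such levels log2(FPKM + 1) understates any change, so these intervals do not bound it. The authors' deposited table gives log2 fold changes of -0.68 for Cd3e, -0.63 for Cd8a and -0.46 for Gzmb. Summed over all 19 T-cell genes, levels were 11.2, 15.9 and 13.7 FPKM with vehicle, against 11.5, 12.6 and 9.16 with CWO. The cytotoxic list summed to 5.4, 10.1 and 6.87 against 5.17, 5.46 and 4.37. Vehicle 2 was the highest library in both sums. With no filter the CWO mean was the lower in 15 of the 19 T-cell genes and the higher in 4. In the cytotoxic list it was the lower in 15 and the higher in 2. Among all 23037 genes with 6 values it was the lower in 10070 and the higher in 8560. In vehicle epidermis Cd3e had a mean of 26.9 FPKM, Cd8a 0.0586 and Gzmb 0.306. The part that carried-over neighbouring tissue has in the lower T-cell and cytotoxic levels was not tested. Cd2, a T-cell adhesion receptor, was the one of the 5 tested T-cell genes with CWO wholly below vehicle, beside 3.56% of all genes. It was at 1.11, 1.13 and 1.04 against 0.616, 0.825 and 0.433 (log2 fold change -0.37, adjusted p = 1.0). These values rest on 16, 21 and 19 recovered fragments against 12, 13 and 7. Cd2 passed the filter only through its vehicle values, which favours this separation. In vehicle epidermis its mean was 7.46 FPKM. The pan-leukocyte gene Ptprc differed little (-0.08, interval -0.33 to 0.17).

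Macrophage genes leaned downward. Of 21 tested, 19 had a negative log2 fold change (median -0.22), 2 had CWO wholly below vehicle, Mmp12 and Itgam, beside 3.56% of all genes, and none was called. Mmp12, macrophage elastase, was at 3.39, 2.63 and 4.45 FPKM with vehicle, against 1.76, 1.94 and 2.12 with CWO (log2 fold change -0.59, interval -0.96 to -0.22, adjusted p = 1.0). The highest member was Chi3l3, at 0.63, though the authors' deposited table gives it -1.36. Outside the list, the chemokine Ccl9 was at 2.74, 1.81 and 2.69 against 1.25, 1.31 and 1.11 (-0.61). Retnla, a product of alternatively activated macrophages and also outside the list, was at 11.6, 22.8 and 1.45 against 0.124, 1.07 and 1.04 (-2.42). Its vehicle tumours differed among themselves more than the groups at their nearest. In vehicle epidermis Retnla had a mean of 159 FPKM. With 1 library left out at a time, 16 to 19 of the macrophage genes were negative, and the median was -0.10 without vehicle 1 and -0.34 without vehicle 3. Mast cell genes were mixed: Tpsab1, a tryptase, was at 7.50, 7.95 and 7.82 against 8.95, 15.8 and 11.8 (0.56), while Kit lay wholly below with CWO (-0.23), and the list median was 0.18 (0.01 without CWO 3 and 0.38 without CWO 1). Antigen presentation by class I molecules had 13 of 18 genes negative (median -0.14) and 3 wholly below, H2-M3, H2-Q7 and Nlrc5, beside 3.56% of all genes. Class I genes are similar in sequence, and the authors' deposited table gives H2-Q7 a mean of 0 in both groups, so its level depends on how reads were assigned. Without vehicle 2 the median of the class I list was -0.02. Interferon-response genes had 11 of 13 negative (median -0.14, and -0.01 without CWO 1), with Igtp, a guanosine triphosphatase of cell-autonomous immunity, at 2.04, 2.79 and 2.43 against 1.11, 1.57 and 1.53 (-0.51). Dendritic-cell genes had a median of -0.09 over 12 tested. The neutrophil list's summed level was 9760 to 17000 FPKM in the 6 libraries, and most of it is S100a8 and related genes that keratinocytes also make.

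Other cell types gave no called gene. Hair follicle genes had 16 of 17 negative (median -0.42) without a non-overlapping member, and their summed level was highest in vehicle 2 (901 FPKM) and lowest in CWO 1 (138). The hair follicle median was -1.05 without vehicle 1, -0.01 without vehicle 2 and 0.23 without CWO 1. Sebaceous gland genes had 11 of 14 negative (median -0.44), with vehicle 2 again highest, and the median was -0.15 without vehicle 2 and -0.86 without vehicle 3. Fibroblast and matrix genes were 14 of 18 positive (median 0.11, and 0.02 to 0.30 with 1 library left out), Col1a1 being at 132, 179 and 164 against 139, 205 and 226. Endothelial genes were 7 positive of 15 with a median under 0.01 in size. Fabp4, a fatty-acid binding protein that made up nearly all of the adipocyte list's level, was at 5210, 4990 and 5040 FPKM against 4270, 4300 and 4540 (log2 fold change -0.22, no overlap).

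Pathways that a topical oil might reach had medians near 0. Calcineurin and NFAT genes had a median of 0.05 over 18 tested, none with separated groups. Rcan1, a calcineurin inhibitor and NFAT target, was at 25.6, 25.1 and 25.8 FPKM with vehicle, against 28.0, 27.7 and 25.2 with CWO, and Nfatc1 had a log2 fold change of -0.04. Of 20 TRP channels, camphor's known receptor family, 7 were tested, with a median of -0.09, and Trpv3 of keratinocytes had -0.11 (interval -0.51 to 0.29). Trpa1 was listed at 0 in all 6 libraries. Xenobiotic enzymes had a median of 0.0 over 20 tested. In that list Aldh3a1, an aldehyde dehydrogenase, was at 9.06, 11.2 and 14.6 against 5.65, 8.77 and 6.75 (-0.64, no overlap), and Cyp1a1 was below the filter (exact permutation p = 0.3). NRF2 antioxidant genes were negative in 15 of 19, with a median of -0.10 (-0.01 without CWO 1) and no separated groups.

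In the unfolded protein response, 17 of 22 genes were negative (median -0.12), but 13 were when CWO 2 was left out (median -0.03). In all 6 libraries Atf4, Creld2, Herpud1 and Xbp1 had CWO wholly below vehicle, beside 3.56% of all genes. Xbp1, a transcription factor of that response, was at 113, 140 and 123 FPKM against 107, 104 and 104 (-0.25, adjusted p = 1.0). Cholesterol synthesis genes were negative in 18 of 19, but by little (median -0.09, and under 0.01 in size without CWO 2), and none had separated groups. Odc1, the polyamine enzyme that TPA induces, was at 84.8, 106 and 78.4 against 75.1, 58.9 and 76.3 (-0.35, no overlap). Ptgs2, the inducible prostaglandin synthase of tumour promotion, overlapped (0.33, interval -0.27 to 0.92). Hras1, the oncogene of this model, had 0.07 (interval -0.12 to 0.25), and RAS-MAPK output genes had a median under 0.01 in size.

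**Figure D4:**
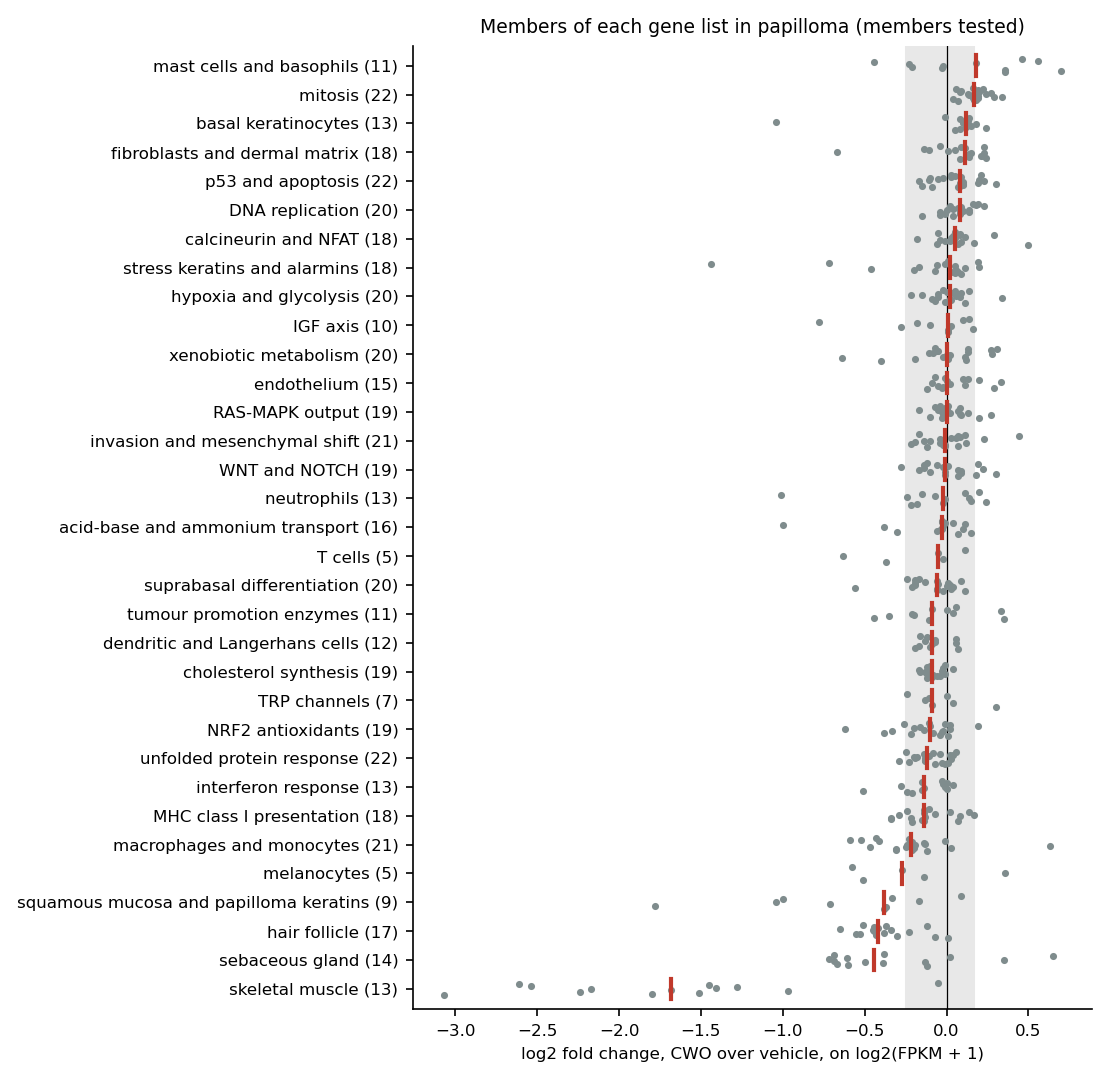
Log2 fold changes in papilloma (CWO over vehicle, horizontal axis) of the tested members (grey points) of each gene list with at least 5 tested members, with the list's median as a red bar and the number tested in brackets. The grey band spans the 5th to 95th percentile of all genes tested (-0.25 to 0.17). Skeletal muscle lies furthest left with a median of -1.68, and mast cells (0.18) and mitosis (0.17) furthest right.

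The tumours were then set beside normal epidermis. At the same threshold CWO changed 245 of 12289 genes in epidermis at 24 h (1.99%), 223 upward and 22 downward. Time, dosing and tissue all differ between the 2 experiments, and their roles cannot be told apart. With 1 epidermis library left out the count of 245 became 64 to 684. Of the 223 genes that rose in epidermis 208 were tested in papilloma, where 117 were positive and 91 negative, with a median log2 fold change of 0.03 against 1.13 in epidermis. In a fit of all 12 libraries the change differed between the tissues in 89 of the 223. The 223 were chosen by the same epidermis values that this fit uses. The choice favours both the count of 89 and the epidermis median of 1.13, so neither is separate support. All 3 CWO tumours were above all vehicle tumours in 24 of the 208, beside 3.03% of all genes, and below in 7, beside 3.56%. The 24 include mitosis genes described above, such as Ccnb1, Mki67 and Top2a, so this count is not separate from that of the mitosis list. Of the 22 genes that fell in epidermis 10 were tested in papilloma, and their median was -0.04.

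Over all genes, the change with CWO differed in that fit between papilloma and epidermis for 98 of 13186 genes (0.743%). The papilloma change was the lower in 94 and the higher in 4 (Cartpt, Gng13, Hamp and Rpl34, named after their values were seen), and 93 of the 98 were also called in epidermis. In Cartpt, Gng13 and Hamp it is the epidermis level that fell. In tumours Cartpt is listed at 0 in every library, Hamp at 0.273 FPKM or less and Gng13 at 0.873 or less. Rpl34 overlapped in tumours and had a log2 fold change of -3.06 in epidermis. Rpl34-ps1, a pseudogene that shares its reads, had 5.89 there, so the level of Rpl34 depends on how shared reads were assigned. Guca2a moved apart most clearly among the genes described above: in epidermis its mean was 17.5 FPKM with vehicle, against 46.2 with CWO (log2 fold change 1.35), against -1.38 in tumours (difference -2.73, adjusted p = 0.00113 in limma). Defb6, a skin defensin, had a mean of 774 and 2400 FPKM in epidermis. In tumours it was at 116, 172 and 122 with vehicle and 90.7, 100 and 91.1 with CWO, wholly below (difference -2.15, adjusted p = 0.000613). Guca2a and Defb6 were named at least partly for large papilloma changes among genes called in epidermis, values that the difference test uses again. Pyy was the exception among the largest papilloma changes of these genes, positive in both tissues (1.43 in epidermis and 0.87 in papilloma, difference adjusted p = 0.669). Mitosis genes that were 1.33 (Ccnb1) and 1.40 (Top2a) higher in epidermis were 0.29 and 0.22 higher in tumours, and the differences did not pass (adjusted p = 0.0904 and 0.0764).

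**Figure D5:**
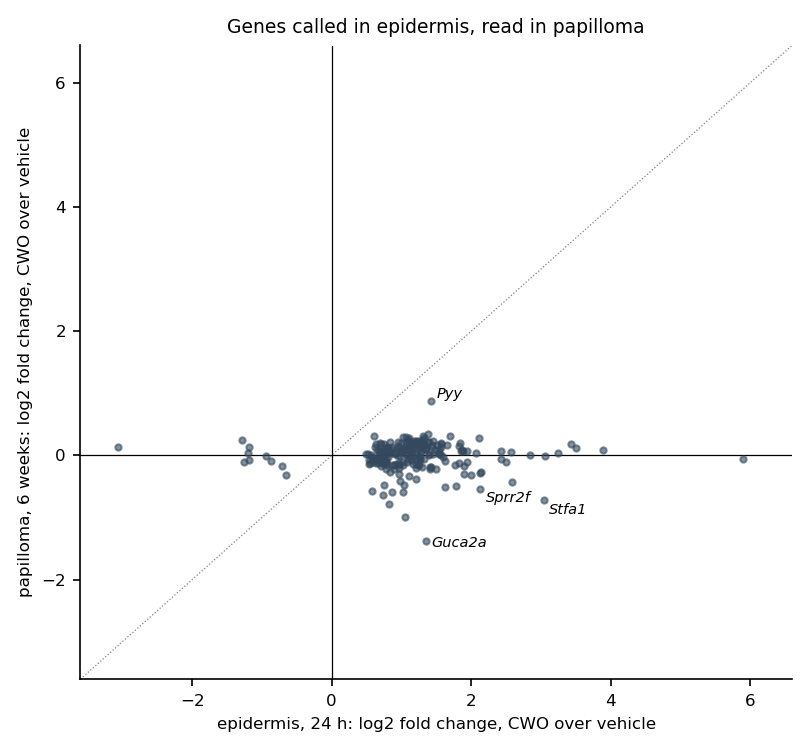
Log2 fold change with CWO in epidermis at 24 h (horizontal axis) against that in papilloma at 6 weeks (vertical axis) for the 218 genes called in epidermis and tested in papilloma, each point 1 gene; the dotted line marks equal change. Points lie along the horizontal line at 0, with Guca2a (-1.38) lowest and Pyy (0.87) highest in papilloma. The point farthest right is Rpl34-ps1, a pseudogene that shares reads with Rpl34.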

How the data were processed

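PolyA RNA of 12 mouse libraries was sequenced, and the 6 papilloma libraries carry the comparison. Per the submitters' processing notes the tools were bcl2fastq 1.8.4, TopHat2 2.0.4, Cufflinks 2.0.2 and DESeq, on mm9. Cufflinks FPKM were deposited for each library, with an interval and a status for every gene. Per the file headers, the authors' comparison table holds group means of normalised signal, the ratio (fold), the log2 ratio, and raw and adjusted p-values. Positions are mm9, counted from 1.

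A value was treated as missing unless its status was OK (198 symbols in at least 1 papilloma library), and rows of 248 symbols were summed, giving 23235. A gene was tested if 3 or more of the fitted libraries reached an FPKM of 1 and each group had 2 or more values. Short non-coding genes (739 symbols) were left out. On log2(FPKM + 1), limma (3.58.1, R 4.3.3) was run with an intensity trend, two-sided, over the 6 papilloma libraries, and calls needed a Benjamini-Hochberg adjusted p under 0.05. The 6 epidermis libraries were fitted alike, and the difference used all 12. Genes under the filter got exact permutation tests. Fragments were recovered from FPKM and its interval, and 92.2% of 11779 genes lay within 1.25-fold of the authors' mean signal after a median ratio of 0.985. Fragment numbers limit precision at low levels. The pipeline was tested on simulated data.

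Replicates are mice, and p-values measure the spread between them. The labels do not say whether replicate numbers pair the groups, so the main fits had no block. Deviations from the group means correlated at 0.28, 0.14 and 0.02 for same-numbered libraries and at -0.37 to 0.28 for the others. These values do not settle whether the numbers pair. Genes were named if called in the authors' deposited table, among the 10 of smallest p in each direction (unnamed models and pseudogenes left out), on a panel of 30, the highest or smallest-p member of 1 of 37 lists or one showing its range, among the 15 of largest spread, or among the 10 of largest papilloma change of those called in epidermis. The comparison, lists and rules were chosen with earlier results of these data known. Alternatives were pseudocounts of 0.1 and 3, other filters and scalings, limma-voom, a replicate block, all 12 libraries in 1 fit, and leaving out each library.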

Additional observations from a re-analysis of the deposited data

Results flagged for a closer look

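For 7 genes named by the rules above, the change with CWO differed between papilloma and epidermis in limma's test of the difference. The test used all 12 libraries at an adjusted p under 0.05, which 0.743% of all genes passed. Stfa1, Guca2a, Sprr2f, Defb6 and Mmp12 were named at least partly for large papilloma changes among genes called in epidermis. The test uses those values again, so their calls are no separate support. The difference, papilloma minus epidermis on the log2 scale, was -3.76 for Stfa1 (adjusted p = 0.00691), -2.73 for Guca2a (0.00113), -2.68 for Sprr2f (0.0418), -2.15 for Defb6 (0.000613) and -1.62 for Mmp12 (0.00691). It was -1.04 for Igtp (0.0277) and -0.94 for Idi1 (0.0367). Rhcg also passed (-1.0, adjusted p = 0.0121), but it is listed at 0 in all epidermis libraries. Its value is therefore its papilloma change, with a spread lowered by libraries that do not vary, and no test of a difference between tissues. Sprr2f, a cornified envelope precursor, was at 535, 536 and 997 FPKM in vehicle tumours and 366, 290 and 865 in CWO tumours, with means of 1.52 and 10.1 in epidermis. Idi1, of cholesterol synthesis, overlapped in tumours (log2 fold change -0.16), with means of 58.6 and 102 in epidermis. With 3 libraries per group, single outlying libraries were not tested for.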

How the results depend on the processing

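The count of 0 called genes in papilloma held under 16 of 19 alternatives, including each left-out library. It was 1 when short genes were kept (Snora75) and 1 in a limma fit of all 12 libraries (Rhcg, adjusted p = 0.00905, with epidermis libraries all at 0 in its spread). With a replicate block it was 4, all lower muscle genes (Acta1, Ckm, Tnnc2 and Tnnt3), and whether the numbers pair mice is not known. Genes whose interval lay within a 2-fold change numbered 11449 of 12144 with a pseudocount of 0.1. With no filter they numbered 18080 of 18599. On log2(FPKM + 1) genes near 0 FPKM stay inside that bound whatever their ratio, so the genes added there are no support. The difference between tissues gave 63 calls with no filter, 63 with limma-voom, 25 with a replicate block and 48 to 69 with 1 papilloma library left out (55 without vehicle 1, 57 without vehicle 2, 48 without CWO 2 and 54 without CWO 3). Epidermis gave 163 calls with limma-voom, 54 with a replicate block and 64 to 684 with 1 epidermis library left out (83, 104 and 684 without vehicle 1, 2 and 3, and 64 and 94 without CWO 1 and 2). The cause of these shifts was not tested. Of 120 named genes tested in papilloma, 93 kept their sign in all settings that gave a value. The 10 shown in the plot of top genes are among them, but their groups do not overlap. Another pseudocount or a left-out library therefore cannot turn their sign, and this is no support for them. Of 37 list medians, 19 kept their sign, including mitosis (0.13 to 0.22), mucosal keratins (-0.65 to -0.25), macrophages (-0.34 to -0.10) and muscle (-3.57 to -0.85). The hair follicle median turned to 0.23 without CWO 1 and that of basal keratinocytes to -0.04 without CWO 3.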

Other observations

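Genes at higher levels in normal epidermis than in tumours were mostly lower with CWO in papilloma; the set was chosen after its values were seen and carries no test. It holds 189 genes with a mean in vehicle epidermis of at least 10 FPKM and at least 16-fold that of the 6 papilloma libraries. With no filter on low values, the mean of the CWO tumours was below that of the vehicle tumours in 181 of them and above it in 6, beside 10070 below and 8560 above among 23037 genes with 6 values. Only 77 passed the filter, which favours members that are high in 1 group (296 vehicle values reached an FPKM of 1 and 173 CWO values), so counts over those 77 are no support. Krt77, Krt15, Dapl1, Skint10 and Retnla are among the 77, as are the muscle genes Acta1 and Ckm and Ccl27a, a chemokine of keratinocytes. The median level of the 77 was 2.82, 7.14 and 2.21 FPKM in the vehicle tumours and 1.33, 2.44 and 1.78 in the CWO tumours, against 78.4 to 120 in vehicle epidermis. Vehicle 2 was highest and CWO 1 lowest. With vehicle 2 left out, the CWO mean was below in 149 of the 189 and above in 37, and with any other papilloma library left out it was below in 173 to 181; these alternatives and the unfiltered counts were chosen after seeing the data.

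The reverse set, 178 genes with a papilloma mean of at least 10 FPKM and at least 16-fold the vehicle epidermis mean, had 174 with 6 values, of which the CWO mean was below in 95 and above in 79. Whether the amount of normal skin carried with each tumour sets the difference of the first set was not tested.

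Ppbp, a platelet chemokine precursor, and Ltf, lactoferrin, followed the library split of Krt18: Ppbp was at 32.9, 11.9 and 6.3 FPKM with vehicle and 1.1, 1.7 and 24.6 with CWO, and Ltf at 3.49, 5.49 and 2.18 against 0.0758, 0.281 and 7.32.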
